A study of Mus musculus with 13 samples.

Results

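The 7 genes described here encode the coat and the neck of caveolae: the caveolins Cav1 and Cav2, the cavins Cavin1, Cavin2 and Cavin3, the neck ATPase Ehd2, and Plvap, which forms the diaphragms that close caveolae and fenestrae. They were chosen by name among the 49315 genes counted in each library. Caveolae are small pits of the plasma membrane, held open by caveolin oligomers in the bilayer and a coat of cavins on the cytoplasmic side. They are abundant in endothelium, muscle and adipocytes. In the brain they are kept scarce in the endothelium of the blood-brain barrier, where the lipid transporter Mfsd2a restrains their formation and caveolar transcytosis is one route across the barrier, while Plvap marks leaky, fenestrated vessels.

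RNA was isolated from midbrain homogenates of 13 male mice, 8 to 12 weeks old and backcrossed to C57BL/6J. All carried Ripk3fl/fl alleles, so that Cre recombinase could remove the kinase gene Ripk3. Aldh1l1Cre+ mice (Cre+) also carried a tamoxifen-inducible Cre driven by the promoter of the astrocyte gene Aldh1l1, and Aldh1l1Cre- littermates (Cre-) did not. Tamoxifen was given at 60 mg/kg for 5 days, which the methods of the study state for mice with the Cre transgene and not separately for Cre- littermates. After at least a week, mice of both genotypes received either saline or MPTP (20 mg/kg once daily for 5 days), with harvest 3 days later. MPTP is converted in the brain to a toxin of dopaminergic neurons. Saline was given to 3 Cre- and 3 Cre+ mice and MPTP to 3 Cre- and 4 Cre+ mice, with 1 library from each mouse.

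Between 11489150 and 29397278 reads were counted per library, and Th, the enzyme that marks dopaminergic neurons, was present at 31.9 to 53.6 CPM in all 13. CPM are read counts brought to a common library total, after scaling that total with TMM factors. Ripk3 had 4 to 40 counts per library, with overlap between the genotypes, so it could not check the labels. Whole tissue also holds Ripk3 of other cells. A pair of libraries stood apart. In Cre- MPTP replicate 1, which was the shallowest, 21101 genes had a count, against 25432 to 27186 in the others, and its counts followed the GC content of the transcript. Cre+ MPTP replicate 4 carried heart muscle RNA: the summed level of 10 heart genes was 7666 CPM, with Myh6 at 3296 CPM, against 13.8 to 177 CPM in the other libraries. The 177 CPM was that of Cre+ Saline replicate 1, with Myh6 at 78.25, Mb at 21.33 and Actc1 at 17.23 CPM. The next highest sum was 48.7 CPM, in Cre+ MPTP replicate 2. What these heart genes mean for the members in Cre+ Saline replicate 1 was not tested. The comparisons are given with and without the pair that stood apart.

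All 7 members were expressed in every library and passed the count filter (10 or more counts in 3 or more libraries). In the 6 Saline libraries the levels per kilobase of exon were highest for Cavin3 (11.97 ± 1.59 CPM per kb, SD, n = 6) and Cavin1 (9.14 ± 1.33 CPM per kb). Plvap (7.99 ± 1.69 CPM per kb) and Cav2 (7.81 ± 1.04 CPM per kb) followed, then Cav1 (5.26 ± 0.601 CPM per kb) and Cavin2 (4.91 ± 0.445 CPM per kb). Ehd2 was lowest at 2.00 ± 0.141 CPM per kb. Neighbours in this order overlapped in range from Cavin3 down to Cav2, as did Cav1 and Cavin2. All 6 libraries of Cav2 (6.49 to 8.85 CPM per kb) were above those of Cav1 (4.45 to 5.75 CPM per kb). The range of Ehd2 (1.81 to 2.23 CPM per kb) lay below that of every other member.

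The caveolins were considered first, since Cav1 is the member without which caveolae do not form outside striated muscle. In the Cre- Saline libraries Cav1 stood at 18.9, 19.5 and 19.8 CPM, and in the Cre+ Saline libraries at 19.6, 15.3 and 15.7 CPM. After MPTP it stood at 2.49, 9.70 and 5.78 CPM in Cre- mice, the first from 23 counts. In Cre+ mice given MPTP it stood at 19.0, 22.4, 19.1 and 45.3 CPM. The 3 Cre- MPTP libraries were below all 10 others, and the library with heart RNA was above all others. Cav2, the partner that oligomerizes with Cav1 and depends on it to leave the Golgi, showed no such pattern: with saline it ranged from 21.7 to 29.5 CPM in Cre- and 22.4 to 29.3 CPM in Cre+ mice, and with MPTP from 23.4 to 32.0 CPM in Cre- and 21.8 to 28.1 CPM in Cre+ mice. All 4 ranges overlapped. The ratio of Cav1 to Cav2, each per kilobase of exon, was 0.620, 0.748 and 0.885 in Cre- Saline and 0.675, 0.663 and 0.518 in Cre+ Saline libraries. After MPTP it was 0.0755, 0.323 and 0.239 without Cre, whereas Cre+ mice had 0.843, 0.835, 0.780 and 1.56. The ratio in each Cre- MPTP library was below that in every other library, also with replicate 1 set aside.

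**Figure D1:**
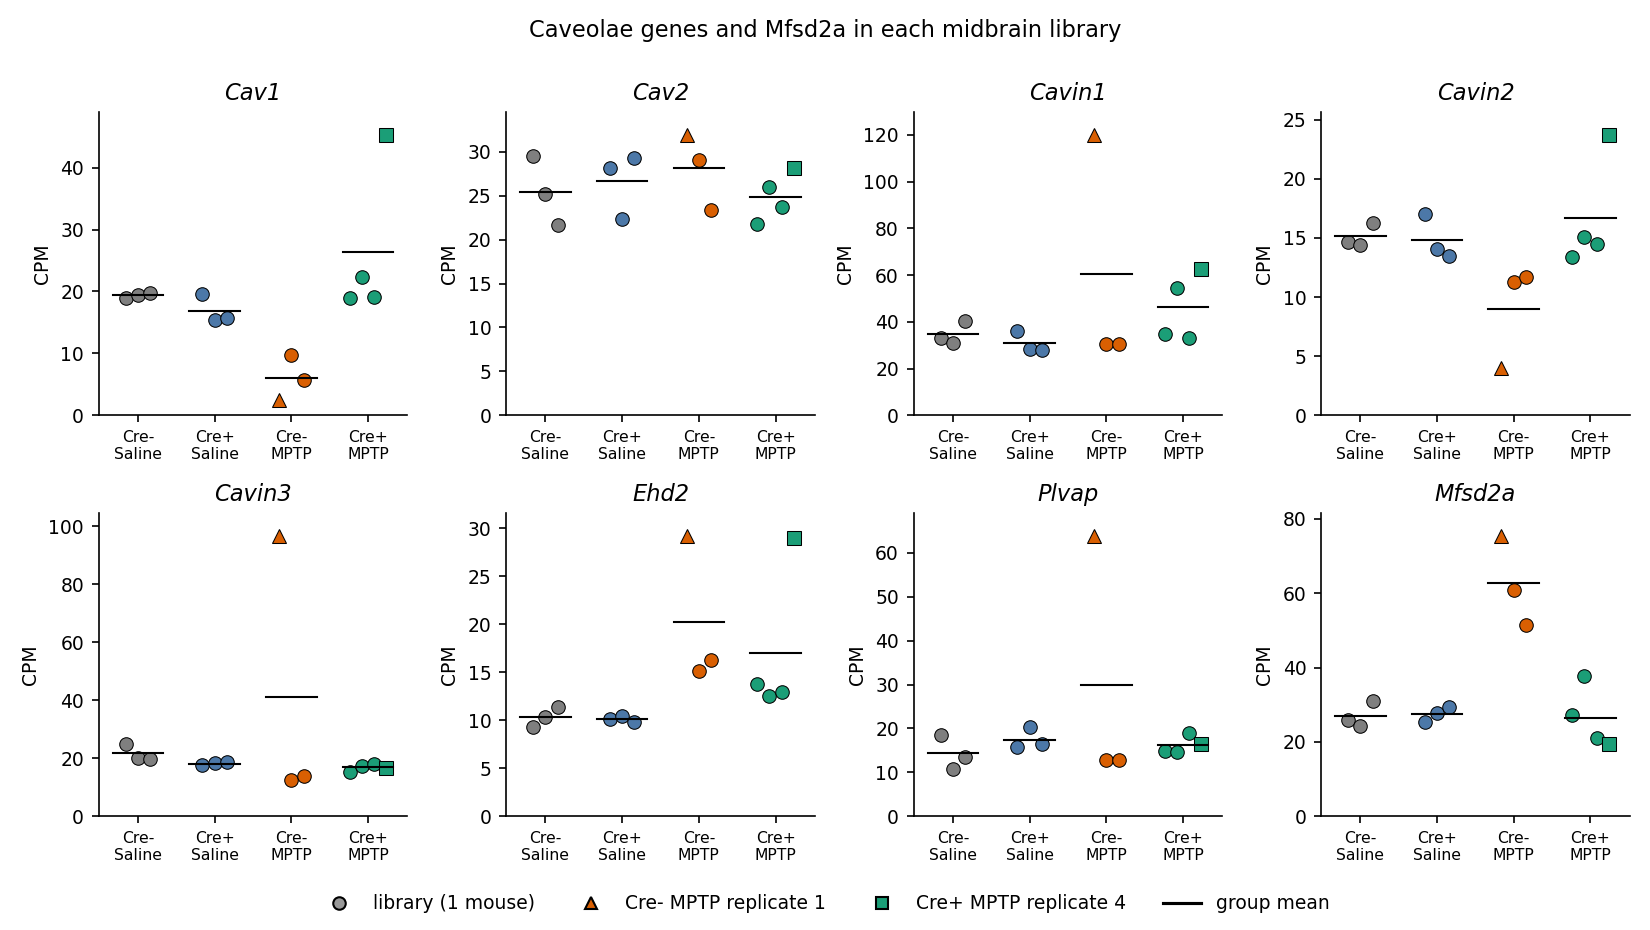
Level of each of the 7 caveolae genes and of Mfsd2a in CPM (vertical axis, from 0) in each library, by group (horizontal axis). Each point is 1 mouse, lines are group means, and the libraries that stood apart have their own symbols. Cav1 is at 2.49 to 9.70 CPM in the Cre- MPTP libraries and at 15.3 CPM or more in all others, while Cavin1, Cavin3 and Plvap are highest in Cre- MPTP replicate 1.

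The 2 caveolin genes are neighbours on chromosome 6 of GRCm38, both on the plus strand, with Cav2 at 17281185 to 17289115 and Cav1 at 17306335 to 17341452, 17.2 kb apart. Their upstream sequences are shown because the neighbours differed in pattern, and that of Cavin2 (chromosome 1, 51289126 to 51302960, plus strand) because Cavin2 was the member whose levels were most like those of Cav1. Each run is the 250 bases before a start site in RefSeq (GRCm38.p6), 5′ to 3′ on the gene's strand, at chr6:17306085-17306334 for Cav1, chr6:17280935-17281184 for Cav2 and chr1:51288876-51289125 for Cavin2. Capitals mark the motifs found, on either strand. Those searched were the GC box GGGCGG, which Sp factors bind, the TATA box spelled TATAAA, the AP-1 element spelled TGANTCA, the palindromic E-box that reads CACGTG, the ETS element with the letters CCGGAA and the CCAAT box.
Cav1: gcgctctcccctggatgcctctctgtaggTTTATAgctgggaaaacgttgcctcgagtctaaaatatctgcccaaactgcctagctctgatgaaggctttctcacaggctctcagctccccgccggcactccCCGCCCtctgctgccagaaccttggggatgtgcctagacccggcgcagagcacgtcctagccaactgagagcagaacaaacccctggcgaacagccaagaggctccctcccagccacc
Cav2: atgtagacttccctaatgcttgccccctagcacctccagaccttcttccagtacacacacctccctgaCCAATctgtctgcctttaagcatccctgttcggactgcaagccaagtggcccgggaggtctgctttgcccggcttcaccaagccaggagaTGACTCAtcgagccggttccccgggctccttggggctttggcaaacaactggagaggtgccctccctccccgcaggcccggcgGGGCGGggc
Cavin2: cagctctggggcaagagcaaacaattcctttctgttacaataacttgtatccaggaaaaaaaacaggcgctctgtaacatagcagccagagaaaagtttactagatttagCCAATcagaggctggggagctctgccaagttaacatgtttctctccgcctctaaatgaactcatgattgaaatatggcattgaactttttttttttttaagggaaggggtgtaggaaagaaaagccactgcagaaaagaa
The Cav1 window held 1 TATA box and 1 GC box, both on the opposite strand, the Cav2 window 1 CCAAT, 1 AP-1 element and 1 GC box, and the Cavin2 window 1 CCAAT. Of all 32851 promoter windows of this length, 32.7% held a GC box, 12.4% a TATA box, 6.75% an AP-1 element, 6.02% an E-box, 12% an ETS element and 33.8% a CCAAT. The motifs printed in capitals do not overlap one another. The Cav1 and Cav2 windows shared the GC box, and Cav1 and Cavin2 shared none of the 6 motifs. GC content was 59.6% in the Cav1, 62.0% in the Cav2 and 40.4% in the Cavin2 window. Windows were found for 5 of the 7 members, all but Cavin3 and Plvap, and the Cav1 window shown is that of the more upstream of 2 start sites.

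The cavins are the cytoplasmic coat. Cavin1 is its essential subunit, Cavin2 shapes and enlarges caveolae, and Cavin3 is a subunit tied to signaling and to the trafficking of caveolae. Cavin2 stood at 14.7, 14.4 and 16.3 CPM in Cre- Saline and at 17.0, 14.1 and 13.5 CPM in Cre+ Saline libraries. After MPTP it stood at 4.01, 11.3 and 11.7 CPM in Cre- mice, below all 10 other libraries. In Cre+ mice given MPTP it stood at 13.3, 15.0, 14.5 and 23.7 CPM, where the library with heart RNA was again highest. The other cavins did not have this order. Cavin1 stood at 120 CPM in Cre- MPTP replicate 1 but at 30.3 and 30.4 CPM in replicates 2 and 3, within the 28.0 to 40.5 CPM of the Saline libraries. In Cre+ MPTP libraries Cavin1 stood at 34.7, 54.4, 33.1 and 62.7 CPM. Cavin3 (chromosome 7, 105480083 to 105482300, minus strand) stood at 96.8 CPM in Cre- MPTP replicate 1 and at 12.6 and 13.9 CPM in replicates 2 and 3, which were the lowest levels of all 13 libraries. Its other groups were narrow, at 19.9 to 24.9 CPM in Cre- mice with saline, 17.5 to 18.6 CPM in Cre+ mice with saline and 15.3 to 18.1 CPM in Cre+ mice with MPTP. An exon of Cavin3 overlaps the transcript Gm45667 on the opposite strand, and the strand setting of the counting is not given in the sources used here.

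Ehd2, which oligomerizes at the neck and holds caveolae at the surface, stood at 9.29, 10.4 and 11.4 CPM in Cre- Saline and 10.1, 10.45 and 9.78 CPM in Cre+ Saline libraries. With MPTP it stood at 29.3, 15.1 and 16.2 CPM in Cre- and at 13.8, 12.5, 12.95 and 29.04 CPM in Cre+ mice. Every MPTP library of either genotype was above every Saline library, also without the pair that stood apart. Plvap, the diaphragm protein, stood at 63.9 CPM in Cre- MPTP replicate 1 and between 10.9 and 20.2 CPM in the other 12 libraries. With replicate 1 set aside, Cre- MPTP replicates 2 and 3 (12.75 and 12.9 CPM) lay within the 10.9 to 18.5 CPM of Cre- Saline libraries, and below all Cre+ libraries, which were at 15.8 to 20.2 CPM with saline and 14.7 to 18.9 CPM with MPTP.

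Before the comparisons, the 2 libraries that stood apart were set against the members. Across 19294 tested genes with a known transcript, the log2 level in Cre- MPTP replicate 1 minus the mean of replicates 2 and 3 correlated with GC content at r = 0.558, and its median went from -1.10 among the 3859 genes lowest in GC to 1.24 among the 3859 highest. This correlation is across genes, which are not independent replicates. The members spanned this range: Cav2 (37.5% GC), Cav1 (42.6%) and Cavin2 (44.4%) at the low end, Ehd2 (54.5%) between, and Cavin3 (56.4%), Cavin1 (57.3%) and Plvap (60.6%) at the high end. Their deviations in this library were 0.29 for Cav2, -1.56 for Cav1, -1.50 for Cavin2, 0.90 for Ehd2, 2.86 for Cavin3, 1.98 for Cavin1 and 2.31 for Plvap on the log2 scale. Of the 7, Cav2 lay on the other side of 0 from the median of the genes in its range of GC. In Cre+ MPTP replicate 4 the same correlation was 0.004. There the log2 level minus the mean of replicates 1 to 3 was 1.17 for Cav1, 1.15 for Ehd2, 0.73 for Cavin2 and 0.66 for Cavin1, and at most 0.24 for the other 3. The muscle forms Cav3 and Cavin4, which coat caveolae of heart and skeletal muscle, stood at 4.24 and 12.4 CPM in this library, against at most 0.219 and 1.40 CPM in the others. Cd36, the fatty acid transporter found in caveolae of heart and fat, stood at 149 CPM against at most 5.12 CPM. The part of the heart RNA in the members' levels was not tested.

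**Figure D2:**
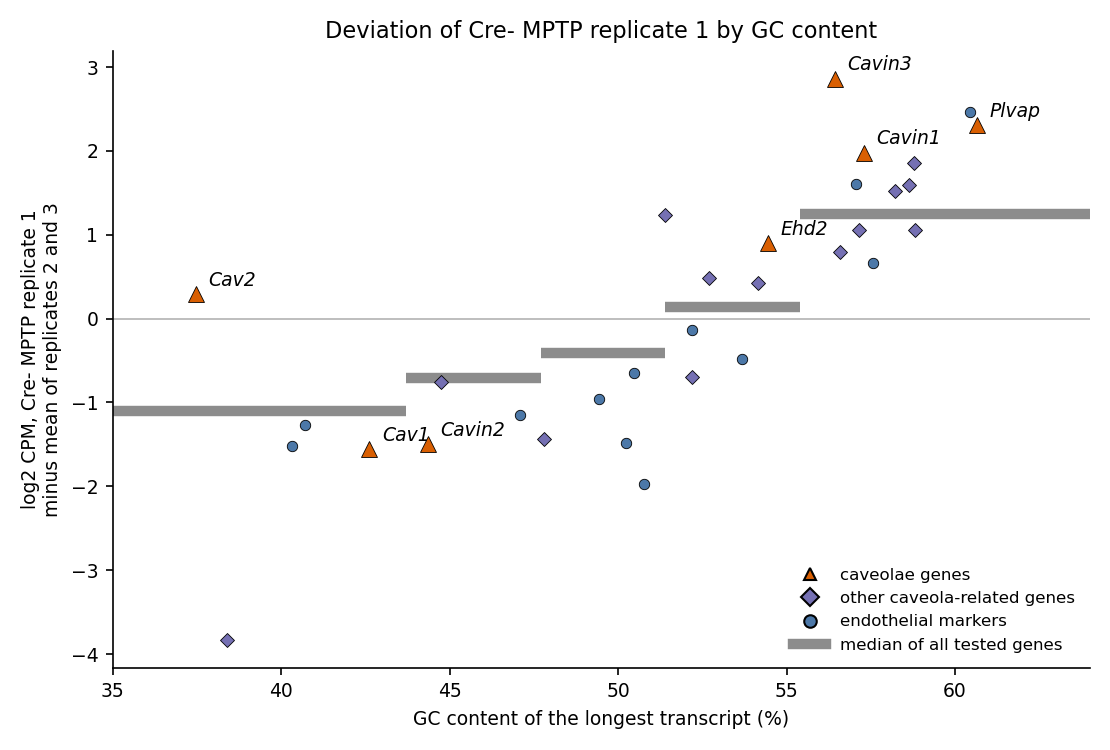
Log2 CPM in Cre- MPTP replicate 1 minus the mean of replicates 2 and 3 (vertical axis) against the GC content of the longest transcript in percent (horizontal axis), for the caveolae genes, other caveola-related genes and endothelial markers, with the median of all tested genes in 5 ranges of GC content as bars. The medians go from -1.10 to 1.24, and Cavin3, Cavin1 and Plvap lie above the bar of their range while Cav1 lies below its own.

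The first comparison asks how MPTP altered the midbrain where astrocytic Ripk3 was not targeted. With all 13 libraries, none of the 7 members passed an adjusted p of 0.05 between Cre- MPTP and Cre- Saline in edgeR's quasi-likelihood test, where 3.18% of all 19360 genes did. At an unadjusted p under 0.05 there were 3, namely Cav1, Cavin2 and Ehd2, beside 15% of all genes. The log2 fold change of Cav1 was -1.66 (SE 0.419, adjusted p = 0.0545), and the levels of Cav1 and Cavin2 did not overlap between the groups, lying lower with MPTP, while those of Ehd2 did not overlap and lay higher. By the same rule 8.02% of all genes were lower and 7.11% higher without overlap. For Cavin2 the log2 fold change was -0.73 (SE 0.329, adjusted p = 0.329), and for Ehd2 0.95 (SE 0.333, adjusted p = 0.200). The other 4 members had log2 fold changes of 0.14 (Cav2), 0.78 (Cavin1), 0.91 (Cavin3) and 1.04 (Plvap), with adjusted p of 0.349 to 0.718. The median over the 7 was 0.78, beside 0.03 over all genes.

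Without Cre- MPTP replicate 1 and Cre+ MPTP replicate 4, 3 of the 7 members passed, where 10% of all genes did. Every fit without both libraries rests on 2 Cre- MPTP mice and 3 Cre+ MPTP mice. Cav1 was lower at a log2 fold change of -1.32 (SE 0.188, adjusted p = 0.000504), which is 2.49-fold. Cavin3 was lower at -0.69 (SE 0.125, adjusted p = 0.00312), having been 0.91 with all libraries, and Ehd2 was higher at 0.61 (SE 0.120, adjusted p = 0.00547). Cavin2 was at -0.38 (SE 0.128, adjusted p = 0.0773). Cav2, Cavin1 and Plvap were at 0.06, -0.18 and -0.14, with adjusted p of 0.603 or more, so that Cavin1 and Plvap changed sign. The median over the 7 was then -0.18. Cav1 kept its direction and came near its value under each omission: -1.66 without Cre+ MPTP replicate 4 (adjusted p = 0.0241, 2 of 7 members called with Ehd2, background 2.89%) and -1.33 without Cre- MPTP replicate 1 (adjusted p = 0.0299, 2 of 7 called with Cavin3, background 9.38%). Leaving out Cre- MPTP replicate 2 also brought the call (-2.16, adjusted p = 0.0155), where 743 of 19205 genes were called. In the other 10 fits that left out 1 library Cav1 was not called (adjusted p up to 0.154), and neither was it in edgeR on the compared groups alone (-1.67, adjusted p = 0.294) or with the count filter edgeR offers, DESeq2 size factors or upper-quartile factors. With a trend on GC content removed from every library, an alternative chosen after the data had been seen, it was -1.59 (adjusted p = 0.0155), the 1 member called, where 4.7% of all genes were. DESeq2 also called Cav1 alone (background 6.17%), and limma voom with quality weights called Cav1 and Cavin3, both lower (background 13.6%).

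**Figure D3:**
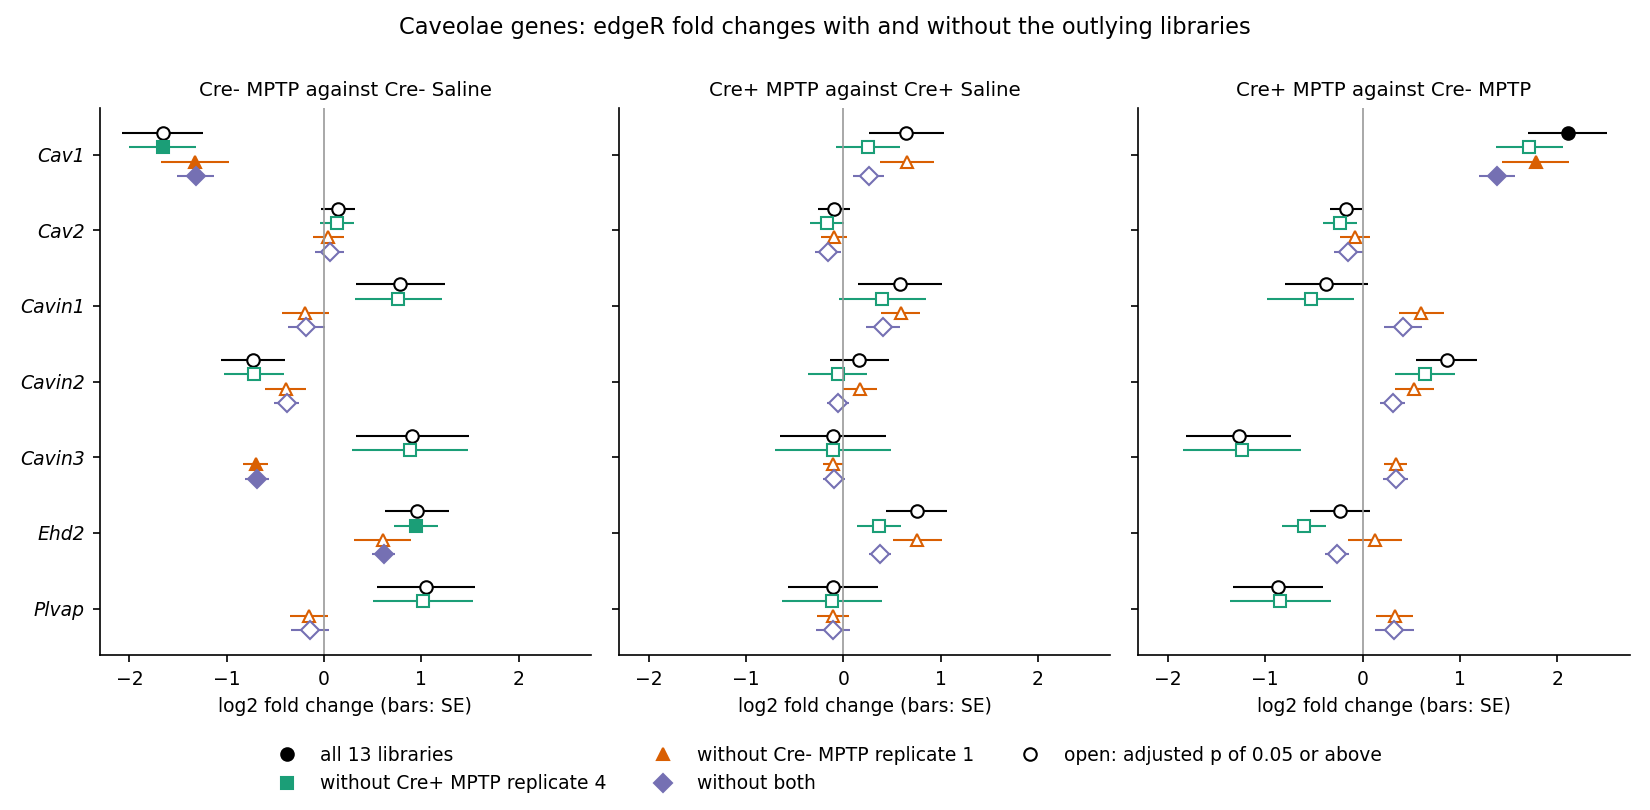
Log2 fold changes of the 7 caveolae genes (horizontal axis, bars are SE) in 3 comparisons, with all 13 libraries and without 1 or both libraries that stood apart. Filled symbols passed an adjusted p of 0.05 in edgeR's quasi-likelihood test. Cav1 lies between -1.66 and -1.32 for MPTP in Cre- mice in all 4 fits, and Cavin1, Cavin3 and Plvap cross 0 when Cre- MPTP replicate 1 is left out.

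The same question was put to Cre+ mice, in which the floxed Ripk3 was targeted in astrocytes. None of the 7 members passed between Cre+ MPTP and Cre+ Saline, and the background was 0% of all genes in edgeR. At an unadjusted p under 0.05 there was 1 member, Ehd2, beside 3.47% of all genes, and DESeq2 (background 0.441%) and limma voom (1.52%) called none. Cav1 had a log2 fold change of 0.65 with all libraries and 0.26 without both outlying libraries, against -1.66 and -1.32 in Cre- mice. Ehd2, the 1 member whose groups did not overlap (5.06% of all genes were higher without overlap), had 0.75 (SE 0.313) and then 0.38 (SE 0.110, adjusted p = 0.340). Cavin1 had 0.59 and then 0.41 (adjusted p = 0.658). The remaining 4 lay between -0.11 and 0.17 with all libraries. Without both libraries the background was 0.198%, and the median over the 7 was -0.05 beside 0.0066 over all genes.

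Comparing Cre+ MPTP with Cre- MPTP asks what targeting Ripk3 in astrocytes altered under the toxin. Of the 7 members, 1 passed: Cav1 was higher in Cre+ mice at a log2 fold change of 2.11, 4.31-fold (SE 0.408, adjusted p = 0.0271), where 1.54% of all genes passed and 0.517% were higher. Cav1 and Cavin2 were higher without overlap, as were 6.25% of all genes. Cavin2 had a log2 fold change of 0.87 (SE 0.313, adjusted p = 0.199), Cavin3 -1.27 (SE 0.540, adjusted p = 0.236) and Plvap -0.87 (SE 0.463, adjusted p = 0.323). The other 3 had -0.18 (Cav2), -0.37 (Cavin1) and -0.23 (Ehd2). The median over the 7 was -0.23, beside 0.03 over all genes.

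The call of Cav1 depended on single libraries. Without Cre+ MPTP replicate 4, which holds the heart RNA, the log2 fold change was 1.71 (SE 0.346, adjusted p = 0.0566) and no member was called, against a background of 0.563%. It was also not called without Cre+ MPTP replicate 1 or 3 or Cre- Saline replicate 2, with adjusted p of at most 0.0584. Without Cre- MPTP replicate 1 the log2 fold change was 1.78 (adjusted p = 0.0113, background 3.18%), and without both outlying libraries it was 1.38, 2.60-fold (SE 0.189, adjusted p = 0.00165, background 2.91%). With the GC trend removed it was 1.96 (adjusted p = 0.00781, background 2.38%), and 1.56 when Cre+ MPTP replicate 4 was left out as well (adjusted p = 0.00994, background 1.48%). DESeq2 and limma voom both called Cav1 alone (backgrounds 4.44% and 6.32%). It was not called in edgeR on the compared groups alone (2.11, adjusted p = 0.308), where no gene was, or with the replicate block (1.77, adjusted p = 0.0927). Cavin2 was at 0.31 (adjusted p = 0.367) without both libraries, and Cavin1, Cavin3 and Plvap were at 0.42, 0.34 and 0.33, each with the opposite sign to that with all 13 libraries. Leaving out Cre- MPTP replicate 2 gave 2.61 for Cav1 and brought Cavin3 under the threshold, lower in Cre+ mice (adjusted p = 0.0460). In that fit, which keeps Cre- MPTP replicate 1, 1826 of 19205 genes were called. The difference of Cav1 was thus in the same direction in all of these fits, while its size ranged from 1.38 to 2.61. With the endothelial marker level as a covariate, described below, it was smaller at 1.18 and not called, where 3 of all genes were.

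**Figure D4:**
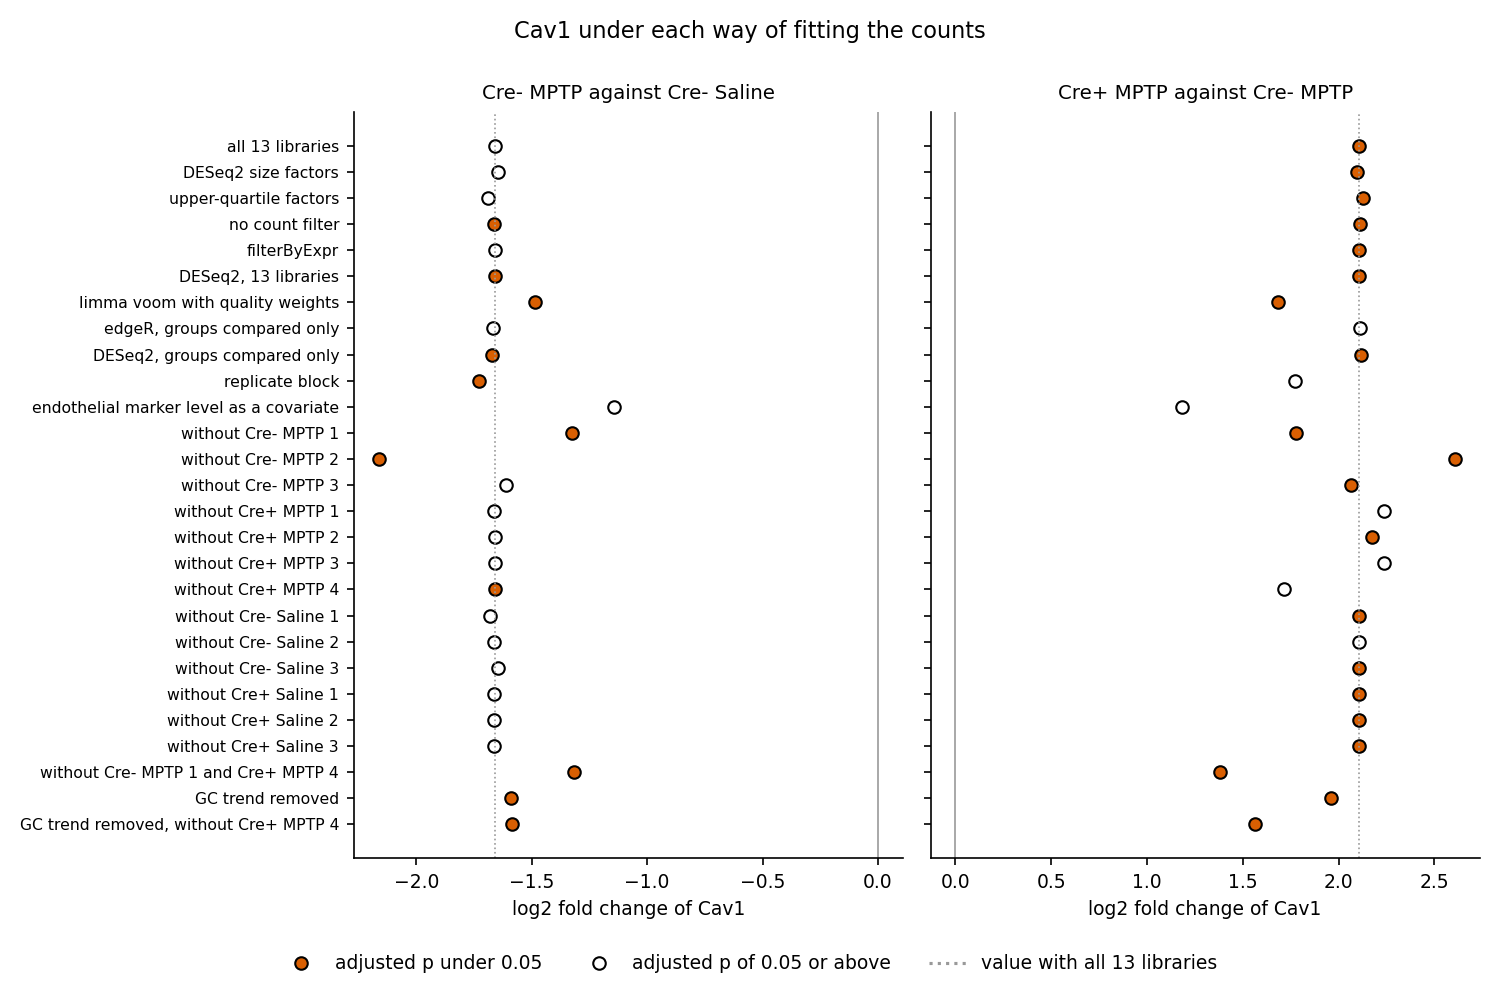
Log2 fold change of Cav1 (horizontal axis) under each way of fitting the counts (rows), for Cre- MPTP against Cre- Saline and for Cre+ MPTP against Cre- MPTP. Filled points passed an adjusted p of 0.05, and the dotted line is the value with all 13 libraries, -1.66 and 2.11. All points of a panel lie on 1 side of 0, and the smallest values come from the fit with the endothelial marker level as a covariate.

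The difference between the MPTP responses of the genotypes was tested as an interaction. None of the 7 members passed, where 0.0103% of all genes did, and 1 (Cav1) had an unadjusted p under 0.05, as had 5.76% of all genes. For Cav1 the interaction was 2.31 on the log2 scale (SE 0.567, adjusted p = 0.240), and DESeq2 and limma voom both called it (backgrounds 1.19% and 3.56%). Without both outlying libraries it was 1.58 (SE 0.244, adjusted p = 0.0157), the 1 member called, where 1.15% of all genes were. Without either library alone it was not called: 1.91 without Cre+ MPTP replicate 4 (adjusted p = 0.342, background 0%) and 1.98 without Cre- MPTP replicate 1 (adjusted p = 0.0552, background 1.03%). No other member passed in these fits. In Saline mice the genotypes differed in none of the 7 members by edgeR or limma voom (backgrounds 0% and 0.0155%). DESeq2 called none either (background 0.0106%) but gave no adjusted p for Cavin3. No member had an unadjusted p under 0.05 in edgeR, beside 0.909% of all genes (1 without both outlying libraries, Cavin3 at -0.25, beside 6.42%). The log2 fold changes were between -0.26 (Cavin3) and 0.29 (Plvap), each within 1 SE of 0 with all libraries. The groups did not overlap for Cavin3, lower in Cre+ mice, as for 5.71% of all genes.

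Caveolae genes are expressed in blood vessels, so the vessel markers were set beside them. In bulk tissue, fewer cells of a type and less RNA per cell cannot be told apart. Among 12 endothelial markers, 1 passed between Cre- MPTP and Cre- Saline (Tek, the angiopoietin receptor, lower), where 3.18% of all genes did. Between Cre+ MPTP and Cre- MPTP 2 passed, where 1.54% of all genes did. These were Tek and Kdr, the main VEGF receptor, both higher in Cre+, and Kdr was not called without Cre+ MPTP replicate 4. In the Cre- mice that received MPTP, Tek stood at 3.36, 7.37 and 7.73 CPM, against 16.1 to 26.4 CPM in the other 10 libraries. Kdr stood at 6.503, 12.4 and 13.01 CPM, against 18.1 to 39.3 CPM. Other markers of the list did not go this way. Cdh5 stood at 26.4, 31.4 and 26.5 CPM in the Cre- MPTP libraries, above the 14.05 to 22.05 CPM of the Saline libraries. Pecam1 stood at 13.98, 34.1 and 44.6 CPM and Emcn at 5.09, 11.2 and 13.7 CPM. In replicates 2 and 3 both were above all Saline libraries (at most 32.4 and 8.37 CPM), and in replicate 1 below them. The summed level of the 12 endothelial markers was 385 to 414 CPM in Cre- and 325 to 378 CPM in Cre+ mice with saline, and 368 to 484 CPM in Cre+ mice with MPTP. In Cre- MPTP replicate 1 it was 548 CPM, above all other libraries, of which Cldn5 made up 298 CPM. The mean log2 level of the 12 was instead lowest in that library, at 4.11 against 4.37 to 5.05 in the others. Summed levels in Cre- MPTP replicates 2 and 3 (334 and 369 CPM) were below every Cre- Saline library and within the range of Cre+ Saline. The median log2 fold change of the 12 between Cre- MPTP and Cre- Saline was -0.02 with all libraries and -0.19 without both outlying libraries. The summed level of 8 mural markers, of pericytes and smooth muscle, was 114 to 241 CPM in Cre- MPTP and 260 to 365 CPM in the other groups. Their mean log2 levels overlapped, at 3.308, 4.212 and 3.924 in Cre- MPTP and 4.074 to 4.771 in the other groups. The pericyte gene Vtn was called lower with MPTP in Cre- mice, where 3.18% of all genes passed. It was picked from the 8 after its value was seen, and its result without the outlying libraries is not given here. The part of mural cells in the members' levels was not tested.

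Relative to the mean log2 level of the endothelial markers, Cav1 was between -0.41 and -0.33 in Cre- Saline and between -0.64 and -0.13 in Cre+ Saline libraries. It was -2.75, -1.13 and -2.06 in the Cre- MPTP libraries, all below every other library, and -0.51, -0.12, -0.47 and 0.46 in the Cre+ MPTP libraries. Cavin2 was at -2.08, -0.92 and -1.05 in Cre- MPTP libraries, below the -0.78 to -0.69 of Cre- Saline libraries, and of the other libraries only Cre+ MPTP replicate 1 (-1.01) lay within the Cre- MPTP range. Ehd2 was at 0.77, -0.50 and -0.58 in Cre- MPTP libraries, above the -1.35 to -1.19 of Cre- Saline libraries, and only Cre+ MPTP replicate 4 (-0.18) of the others lay within the Cre- MPTP range. With the endothelial level as a covariate in the fit, Cav1 had a log2 fold change of -1.14 (adjusted p = 0.234) between Cre- MPTP and Cre- Saline. Between Cre+ MPTP and Cre- MPTP it was 1.18 (adjusted p = 0.759). No member was called in either, where 422 and 3 of all genes were. The covariate includes Tek and Kdr, which were themselves called. It was lowest in Cre- MPTP replicate 1 (4.11) and highest in Cre+ MPTP replicate 4 (5.05). The part of vessel content in the Cav1 difference was thus not tested.

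**Figure D5:**
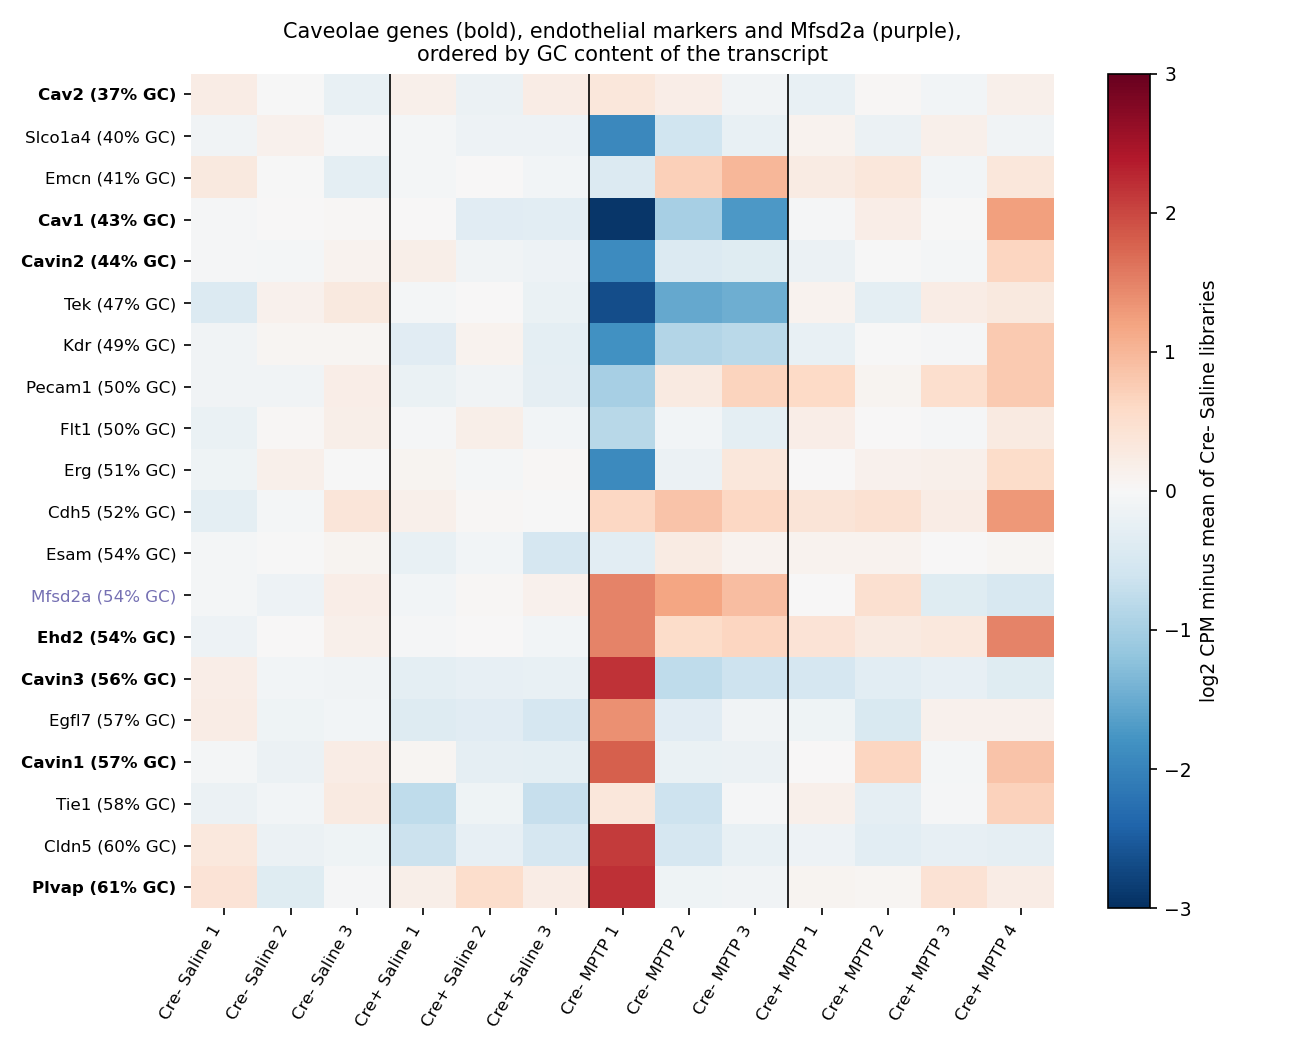
Log2 CPM minus the mean of the Cre- Saline libraries (colour, limited to -3 to 3) for the caveolae genes (bold), the 12 endothelial markers and Mfsd2a (purple), in each library (columns), ordered from top to bottom by the GC content of the transcript. Cav1, Tek and Kdr are low in all 3 Cre- MPTP libraries, whereas the endothelial marker Cdh5 is above all Saline libraries there. Cavin1, Cavin3, Plvap and Cldn5 are highest in Cre- MPTP replicate 1.

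Among 14 further genes of caveolae and lipid rafts (dynamin, pacsins, other EHD proteins, flotillins, the nitric oxide synthase Nos3 and its adaptor Nostrin among them), 13 were tested. Of these, 1 passed in Cre- MPTP against Cre- Saline (background 3.18%) and 1 in Cre+ MPTP against Cre- MPTP (background 1.54%), each time Mfsd2a. The median over the 13 was 0.39 in the first and -0.30 in the second. For MPTP in Cre+ mice, between the Saline groups and for the interaction 0 passed (backgrounds 0%, 0% and 0.0103%). At an unadjusted p under 0.05 there were 2, 0 and 2 in these 3 comparisons, beside 3.47%, 0.909% and 5.76% of all genes. There DESeq2 called 0, 0 and 1 (backgrounds 0.441%, 0.0106% and 1.19%) and limma voom 1, 0 and 1 (1.52%, 0.0155% and 3.56%). Mfsd2a stood at 25.8, 24.3 and 31.0 CPM in Cre- Saline and at 25.5, 27.7 and 29.4 CPM in Cre+ Saline libraries. After MPTP it stood at 75.5, 61.0 and 51.5 CPM in Cre- mice and at 27.4, 37.8, 20.9 and 19.4 CPM in Cre+ mice. The 3 Cre- MPTP libraries were above all 10 others, the opposite order to Cav1. Of all genes, 7.11% were higher without overlap in Cre- MPTP than in Cre- Saline. The log2 fold change was 1.21 (SE 0.238, adjusted p = 0.0133) between Cre- MPTP and Cre- Saline, and 1.07 (adjusted p = 0.00209) without both outlying libraries. It was not called without Cre- Saline replicate 1 or 2 (adjusted p up to 0.0820), in edgeR on the compared groups alone (1.21, adjusted p = 0.0909) or with the endothelial covariate (0.87, adjusted p = 0.0761). Between Cre+ MPTP and Cre- MPTP it was -1.25 (SE 0.218, adjusted p = 0.0172), and -0.98 (adjusted p = 0.0101) without both, and it was not called without Cre+ MPTP replicate 1 or 3 (adjusted p up to 0.0636). Nor was it called in edgeR on the compared groups alone (-1.27, adjusted p = 0.270), with the replicate block (-1.14, adjusted p = 0.109) or with the endothelial covariate (-0.77, adjusted p = 0.543). The interaction was -1.27 (adjusted p = 0.259). Markers of other cells that can express these genes were also summed. The fibroblast list was at 214 to 223 CPM in Cre- MPTP and 125 to 208 CPM in the other libraries. Its mean log2 levels did not separate: 4.386, 4.192 and 4.106 in Cre- MPTP, within the 3.394 to 4.51 of the other libraries. The part of fibroblasts in the members' levels was not tested. The astrocyte list was at 2037 CPM in Cre- MPTP replicate 1, at 3968 and 4109 CPM in replicates 2 and 3, and at 3388 to 3959 CPM in the other groups. The adipocyte list summed to at most 1.70 CPM outside Cre+ MPTP replicate 4, where it was 37.4 CPM. Fabp4 made up 37.05 CPM of this, and no other gene of that list was above 0.533 CPM in any library. Cre+ MPTP replicate 4 also had the highest skeletal list (212.5 CPM), with Ckm at 189 CPM. In any library, Acta1 was at most 32.5 CPM and Myh1, Myh4, Tnnt3 and Mylpf at most 1.905 CPM. The skeletal list was at 36.1 CPM in Cre+ MPTP replicate 2, the library with the next highest Cavin1 of that group (54.4 CPM), and at most 9.43 CPM in the other 11. The pituitary list, of a gland whose vessels are fenestrated, was at 612 and 451 CPM in Cre+ Saline replicates 1 and 3, in which Plvap stood at 15.8 and 16.4 CPM, and between 11.7 and 110 CPM in the others. The choroid plexus list was at 88.8 CPM in Cre+ MPTP replicate 1, where Plvap stood at 14.8 CPM, and between 24.2 and 40.8 CPM elsewhere. The part of these tissues in the members' levels was not tested.

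The members did not move as 1 set. Over the 13 libraries, the log2 levels of Cav1 and Cavin2 had r = 0.933, and those of Cavin3 and Plvap r = 0.91, while Cav1 and Cavin3 had r = -0.605. Over the 11 libraries without the pair that stood apart these were 0.807, 0.365 and 0.652, so that the last changed sign. Ehd2 ran against Cavin3 over the 11 libraries (r = -0.856), having been at 0.427 over all 13. These correlations describe libraries of 4 groups and share their depth and base composition. Among all genes tested, those most like Cav1 over the 13 libraries were Kdr (r = 0.955), Exd2 (0.939) and Myct1 (0.935). Without Cre+ MPTP replicate 4 they were Slco1c1 (0.973), an organic anion transporter of brain endothelium, Prom1 (0.967) and Rasgrp3 (0.965). For Cavin2 they were Acad11 (r = 0.974), Insl5 (0.973) and Oxnad1 (0.972), and for Ehd2 Dmpk (0.957), Serpinh1 (0.952) and Lama5 (0.952). Cav2 was most like Tmed7 (0.895), Smndc1 (0.843) and Sucla2 (0.837). Cavin1 was most like Gm7666 (0.935), Snapc3 (0.931) and Fadd (0.924), Cavin3 like Snx3 (0.993), Emc10 (0.992) and Bcl7c (0.992), and Plvap like Zdhhc16 (0.981), Tymp (0.966) and Gm25641 (0.961). Each of these last 3 members was at its highest in Cre- MPTP replicate 1.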

How the data were processed

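Whole-midbrain RNA of 13 mice was sequenced from stranded total RNA libraries. The authors deposited raw read counts per gene, 1 file per library. Per the labels and the methods of the study, reads were trimmed (Trimmomatic 0.36), aligned to GRCm38 (STAR 2.5.2b) and counted with featureCounts (Subread 1.5.2). The strand setting of the counting is not given in the sources used here. Of 49315 Ensembl genes, 49056 were named from GENCODE M21 and 259 were not.

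Genes that reached 10 counts in 3 or more libraries (19360) were fitted in R 4.3.3 with edgeR 4.0.16 (TMM factors, quasi-likelihood test, 1 term per group, all 13 libraries), and p-values were adjusted by Benjamini-Hochberg over all genes tested, with a threshold of 0.05. Log2 levels used a prior count of 2. DESeq2 1.42.0, limma 3.58.1 (voom with quality weights), other scalings and filters, the replicate block, an endothelial covariate and the omission of each library were alternatives, and removal of a GC trend was added after the data had been seen. The scripts were tested on simulated data. Figures were drawn in Python 3.11.15 with matplotlib 3.10.9.

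The members and lists were chosen with earlier results of these data known. The genes named were the 7 members, the caveola-related genes called in any comparison, Cav3 and Cavin4, defining markers, and the 3 genes with the highest Pearson r to each member. Cd36, Cldn5, Cdh5, Pecam1, Emcn and the called markers Tek, Kdr and Vtn were named after their values were seen. Each library is a separate mouse. Same-numbered libraries of different groups did not deviate together (r from -0.179 to 0.184 over 18 pairs, against -0.182 to 0.239 over 45 pairs of different number), so the numbers were not taken as pairs. Library totals were 11489150 to 29397278 counts, and 23 counts of Cav1 in Cre- MPTP replicate 1 were the fewest behind a Cav1 value.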

Additional observations from a re-analysis of the deposited data

Results flagged for a closer look

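In the Cre+ MPTP group of 4 mice, the highest library lay far from the nearest other for 3 of the 7 caveolae genes, by Dixon's criterion at the 95% level. It was replicate 4 each time, with Cav1 at 45.33 CPM, Cavin2 at 23.73 CPM and Ehd2 at 29.04 CPM. The same library stood out for the muscle forms Cav3 (4.235 CPM) and Cavin4 (12.4 CPM) and for Cd36 (148.9 CPM). Of the 21 genes looked at in this group, 6 were flagged. All were measured in the same 4 mice and the flags fell on the same library. They are thus not independent and cannot be set against the 1 in 20 that chance flags. The library carried heart muscle RNA, and the part of that RNA in the levels of Cav1, Cavin2 and Ehd2 was not tested. The criterion was not applied to groups of 3 mice, and so not to Cre- MPTP replicate 1.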

How the results depend on the processing

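Over 35 member results, 806 alternative values kept their direction and side of the threshold. With direction kept, 18 passed it newly and 7 lost it, and 65 turned direction. Values that turned and also passed are counted among the 65 only. These were Cavin3 for MPTP in Cre- mice, with voom, without Cre- MPTP replicate 1 and without both outlying libraries. The cause was not tested where none is named. In the counts that follow, the genes called among all genes tested stand in brackets. Between Cre- MPTP and Cre- Saline, 0 members were called with all libraries (616). There was 1 with no count filter (567), DESeq2 on all (1137) or on the compared libraries (561), the replicate block (428) and the GC trend removed (906). There were 2 with voom (2624) and with the GC trend removed without Cre+ MPTP replicate 4 (860), and 3 without both outlying libraries (1923). Leaving out each library gave 0 to 2 (311 to 1812). Between Cre+ MPTP and Cre- MPTP, 1 was called with all libraries (299). There were 0 with edgeR on the compared groups alone (0), the replicate block (0) or the endothelial covariate (3). Leaving out each library gave 0 to 2 (41 to 1826). For the interaction, 0 were called (2), and 1 with DESeq2 (223), voom (689) and without both libraries (220).

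The replicate numbers did not pair the libraries. In the replicate block fit Cre+ MPTP replicate 4 stands alone in its block and adds nothing. There Cav1 was called at -1.73 (adjusted p = 0.036) for MPTP in Cre- mice and not at 1.77 (adjusted p = 0.0927) between the MPTP groups, and in Cre+ mice Cavin2 turned to -0.0739 and Mfsd2a to 0.0425. Among all genes, 428 were called for MPTP in Cre- mice and 0 between the MPTP groups under the block. edgeR on the compared groups alone called 110 and 0 genes, DESeq2 1137 and 834, and the endothelial covariate 422 and 3, beside 616 and 299.

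Directions that turned are given as log2 fold changes. With voom, in Cre- MPTP against Cre- Saline Cavin1 was -0.0807 and Cavin3 -0.60, in Cre+ MPTP against Cre- MPTP Cavin1 was 0.40, Cavin3 0.275 and Plvap 0.30, and for the interaction Cavin1 was 0.49 and Cavin3 0.45. Without both libraries, in Cre- MPTP against Cre- Saline Cavin1 was -0.18, Cavin3 -0.69 and Plvap -0.14, in Cre+ MPTP against Cre+ Saline Cavin2 was -0.0513 and Mfsd2a 0.0613, between the MPTP groups Cavin1 was 0.42, Cavin3 0.34 and Plvap 0.33, and for the interaction Cavin1 was 0.59, Cavin3 0.59 and Plvap 0.0362. With the GC trend removed, between the MPTP groups Cavin1 was 0.16 and Plvap 0.0394, in Saline mice Ehd2 was 0.016, and for the interaction Cavin1 was 0.24. With that and without Cre+ MPTP replicate 4, in Cre+ mice Cavin2 was -0.0641 and Mfsd2a 0.0747, between the MPTP groups Plvap was 0.0295, in Saline mice Ehd2 was 0.0155, and for the interaction Cavin1 was 0.0658. With the endothelial covariate, Cavin3 was -0.345 for MPTP in Cre- mice. In Cre+ mice Cav1 was -0.19, Cav2 0.0717, Cavin2 -0.57, Cavin3 0.96, Plvap 0.68 and Mfsd2a 0.30. Between the MPTP groups Cav2 was 0.0373, Cavin1 0.46, Cavin3 0.51 and Plvap 0.43. In Saline mice Cav1 was 0.23, Cav2 -0.026, Cavin2 0.37, Ehd2 0.0545, Plvap -0.10 and Mfsd2a -0.20. For the interaction Cav2 was 0.0633, Cavin1 0.91, Cavin2 -0.29, Cavin3 1.31 and Plvap 0.53.

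Leaving out each library in turn gave these ranges where a direction turned. For MPTP in Cre- mice they were -0.19 to 1.10 (Cavin1), -0.70 to 1.32 (Cavin3) and -0.155 to 1.40 (Plvap). In Cre+ mice they were -0.0579 to 0.26 (Cavin2), -0.19 to 0.0098 (Plvap) and -0.29 to 0.0549 (Mfsd2a). Between the MPTP groups they were -0.68 to 0.60 (Cavin1), -1.68 to 0.34 (Cavin3), -0.60 to 0.12 (Ehd2) and -1.22 to 0.33 (Plvap). In Saline mice they were -0.035 to 0.18 (Cav2), -0.13 to 0.0397 (Cavin2), -0.11 to 0.0506 (Ehd2) and -0.0466 to 0.14 (Mfsd2a). For the interaction they were -0.51 to 0.78 (Cavin1), -1.42 to 0.60 (Cavin3), -0.57 to 0.16 (Ehd2) and -1.51 to 0.0487 (Plvap). The levels relative to the endothelial markers kept their values with a prior count of 0.5. DESeq2 gave no adjusted p for Cavin3. Depth limits Cav1 most, at 23 counts in Cre- MPTP replicate 1.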
